A study of Mus musculus with 3 samples.

Results

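The cells described here are a small epithelial population of mouse nasal mucosa that carries the BPI-fold gene Bpifb6 and the carboxylesterase gene Ces1a. A cell barcode was a member when Bpifb6 made up at least 0.1% of its UMIs (unique molecular identifiers, each standing for 1 captured transcript), Ces1a had at least 1 UMI and the leukocyte gene Ptprc had 0. Barcodes in which 3 or more of the serous gland genes Obp1a, Obp1b, Mup4, Bpifb9b, Dmbt1 and Ltf reached 0.1% were left out. The rule took 414 of 32376 kept cells, namely 150 in the PBS, 125 in the papain and 139 in the papain + LND library. The members were thus selected on measured levels of Bpifb6, Ces1a, Ptprc and the serous genes, so their high or low levels here are a description and not a finding.

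The study profiled nasal mucosa of C57BL/6J mice by droplet single-cell RNA sequencing with 10x Genomics 3' chemistry. Control mice received PBS in the nose. Mice of the second group received 20 µg papain in the nose and PBS by gavage as a model of eosinophilic rhinosinusitis, and those of the third received the same papain with LND at 10 mg/kg by gavage. Papain is a plant cysteine protease, and LND, which the labels do not spell out, is read here as lonidamine, which blocks hexokinase as well as the carriers of pyruvate and lactate. Each group held male and female mice in equal parts, and the tissue of all its mice was pooled into 1 library. No gavage is named for the controls, and how many mice were pooled is not stated in the labels. With 1 pooled library a group there is no measure of the spread between mice, so no test between groups was made and all intervals below cover counting error only.

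Glands of the nasal mucosa release water, salts, mucins and small proteins that bind lipids, odorants and microbes onto the surface of the airway. BPI-fold proteins share a fold with bactericidal/permeability-increasing protein and bind lipids, and BPIFB6 is known as a member that stays inside the secretory pathway. Carboxylesterases of the Ces1 family hydrolyse esters in the endoplasmic reticulum. Ptgds makes prostaglandin D2 and also carries small lipophilic molecules as a lipocalin. In the olfactory mucosa, Sox9, Sox10 and Aqp5 are known from Bowman's glands.

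The members were led by secreted and endoplasmic reticulum proteins. Of the 20 genes with the highest ratio of member to other-cell level, Ces1a stood 184-fold, Bpifb6 168-fold and Ptgds 155-fold above all other kept cells, as geometric means over the 3 libraries. Levels are given as CPM, the UMIs of a gene summed over the cells of a library and scaled to a fixed total. They were followed by the glutathione peroxidase gene Gpx6 at 94.4-fold, Cdcp3 at 93.4-fold, the BPI-fold gene Bpifb4 at 89.1-fold and the gastrokine gene Gkn3 at 78.0-fold. The secretoglobin Scgb1c1 was the most abundant transcript, at 121802 CPM in the PBS, 121089 in the papain and 106364 in the papain + LND library, and stood 22.2-fold above other cells. Together Scgb1c1, Gpx6, Bpifb6, Bpifb4 and Ptgds made up 33.9% of member UMIs in the PBS, 29.3% in the papain and 28.9% in the papain + LND library.

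**Figure D1:**
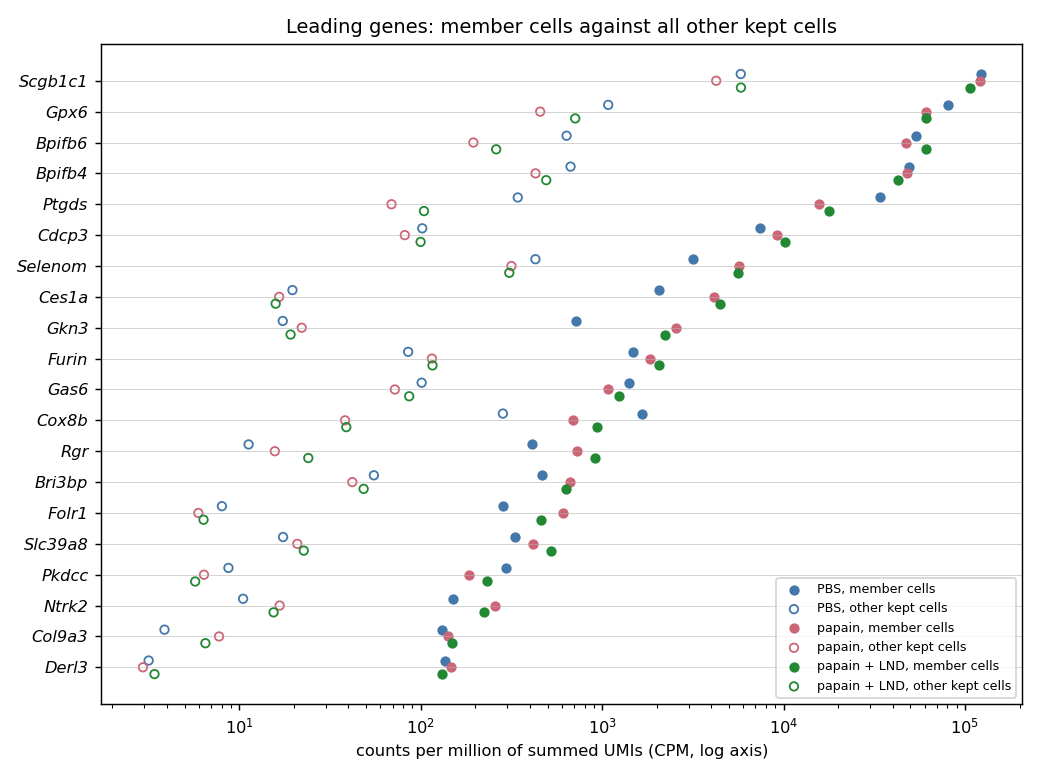
Levels of the 20 leading genes in CPM of summed UMIs (log axis), with filled points for member cells and open points for all other kept cells of each library. Every filled point lies to the right of the open points of its gene, with Scgb1c1 highest at 121802 CPM in PBS members and Derl3 and Col9a3 lowest among the leading genes.

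Epithelial and gland markers were present. Epcam stood at 649, 849 and 763 CPM in PBS, papain and papain + LND members, against 671, 728 and 547 CPM in other cells. Scgb1b27 gland cells (1033, 2046 and 1456 CPM) and Klk1 duct-like cells (842, 1361 and 928 CPM) held more of it than members. The keratin gene Krt18 stood at 1300, 1638 and 1189 CPM against 929, 1083 and 835 CPM in other cells. The water channel gene Aqp5 stood at 1979, 1442 and 1269 CPM against 374, 341 and 313 CPM in other cells. Sox9, a transcription factor of gland progenitors, stood at 505, 486 and 479 CPM against 71.3, 99.2 and 105 CPM, and Sox10 at 59.0, 42.6 and 47.3 CPM against 6.04, 6.61 and 7.70 CPM. Neither was particular to members among gland cells. Scgb1b27 gland cells held Sox10 at 55.8, 56.4 and 57.9 CPM and Sox9 at 391, 376 and 567 CPM. Klk1 duct-like cells held Sox9 at 433, 1300 and 674 CPM but little Sox10, and serous gland cells stood below members for both genes. Bhlha15, a transcription factor of secretory cells with a large secretory apparatus, stood at 23.9, 27.2 and 26.2 CPM against 1.35, 1.43 and 2.11 CPM. It was not particular to members either, at 16.6, 18.6 and 15.2 CPM in serous and 15.9, 8.05 and 16.5 CPM in Scgb1b27 gland cells. Klk1 duct-like cells held 0 CPM of it. Of the 15 gland or secretory markers in the files, 10, 11 and 11 stood above other cells, while Lyz1 and Dcpp1 were at 0 UMIs in all 3 libraries. Of 8 olfactory (Bowman) gland markers, 5, 4 and 4 stood above other cells. Gpx3, one of the 8, was at 3, 0 and 20 UMIs, and Ascl3 was below other cells in each library.

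Of the markers of other cells, most stood below their level in other kept cells. The 6 leukocyte markers summed to 59.3, 24.1 and 10.6 CPM in members against 1234, 796 and 833 CPM in other cells, and Ptprc itself is 0 by the rule. The serous gland gene Dmbt1 was at 0 UMIs in all members, and Bpifb9b was at 0 in all kept cells. The 6 serous markers summed to 269, 586 and 3009 CPM against 4001, 7496 and 9714 CPM in other cells. The 7 mature olfactory neuron markers summed to 1205, 1178 and 349 CPM against 18805, 4565 and 4554 CPM. Of 6 pericyte and smooth muscle markers only Rgs5, a regulator of G-protein signalling, stood above other cells, at 3469, 5179 and 2936 CPM against 605, 1179 and 874 CPM. Agr2, a disulfide isomerase of the goblet list, stood at 878, 1102 and 1047 CPM against 215, 503 and 484 CPM, and Chil6 of the sustentacular list at 690.5, 1019 and 725 CPM against 493, 534 and 637 CPM. The 7 sustentacular markers summed to 938, 1593 and 1921 CPM against 1871, 6188 and 7017 CPM. Of the leading genes, 19 stood below their member level in each of 3 other gland groups of every library, and Ntrk2, a neurotrophin receptor gene, did not: it stood at 175 and 269 CPM in Scgb1b27 gland cells against 149.997 and 223 CPM in members of the PBS and papain + LND libraries. Bpifb6, which the rule used, stood at 99.5, 352 and 807 CPM in serous gland cells (3 or more serous genes at 0.1%). In Scgb1b27 gland cells it stood at 73.8, 24.2 and 24.8 CPM, and in Klk1 duct-like cells at 171, 43.6 and 78.2 CPM. All other kept cells together held Bpifb6 at 637, 195 and 261 CPM, and 45.2%, 21.9% and 28.9% of them had at least 1 Bpifb6 UMI.

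Members differed widely in depth and in their share of Bpifb6. The median Bpifb6 share was 5.34% of a cell's UMIs in PBS, 4.76% in papain and 6.52% in papain + LND members, with ranges of 0.129% to 10.7%, 0.102% to 10.3% and 0.160% to 11.2%. The share was under 2% in 13, 29 and 17 members, which is 29 of 125 in the papain library. Just inside the threshold, at 0.1% to 0.2%, lay 4, 6 and 2 members, and at 0.05% to 0.1% lay 5, 7 and 12 cells that met the other conditions. Members fell into a deep and a shallow range: 113 of 150 PBS, 66 of 125 papain and 92 of 139 papain + LND members had 10000 UMIs or more. The median depth was 24917 UMIs in PBS, 11150 in papain and 14574 in papain + LND members, against 7366, 6605 and 5869 in other cells. Of the kept cells with Bpifb6 at 0.1% or more, 148, 113 and 235 lacked Ces1a, 37, 53 and 81 held Ptprc, and 13, 27 and 104 met the serous condition.

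**Figure D2:**
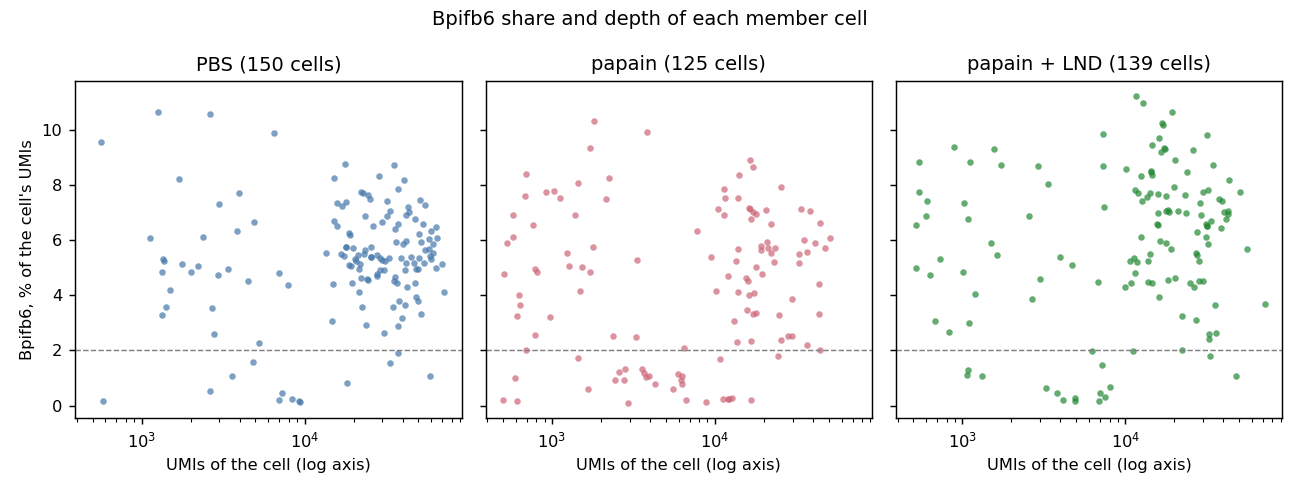
Each point is 1 member cell, plotted by its UMIs (log axis) and by Bpifb6 as a percent of them, with a dashed line at 2%. Most PBS points lie at 10000 UMIs or more and between 4% and 8% Bpifb6, while 29 papain points lie under the line.

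Other genes varied among the members as well. Ptgds ranged from 0% to 11.1% of a PBS member's UMIs with a median of 3.54%, from 0% to 3.63% with a median of 1.21% in papain members, and from 0% to 4.68% with a median of 1.57% in papain + LND members. Its coefficient of variation was 0.513, 0.730 and 0.579, against 0.417, 0.542 and 0.489 for Scgb1c1 and 0.914, 0.749 and 0.804 for Vmo1, a vitelline membrane protein homologue. The members with the least Bpifb6 also had little Ptgds. In PBS, Ptgds stood at 1053 CPM in the 6 members with Bpifb6 at 0.1% to 0.5% and at 37061 CPM in the 120 members at 4% or more. The same bands of the papain library held 807 CPM in 10 and 20014 CPM in 74 members. Other leading genes did not follow Bpifb6 in every band: Scgb1c1 stood at 146129 CPM in papain members with 2% to 4% Bpifb6 and at 128209 CPM in those with 4% or more.

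The members with little Bpifb6 also carried transcripts of other cell programs. Chil4, a chitinase-like secreted protein, reached 0.1% of UMIs in 16 of 29 papain members under 2% Bpifb6 and in 8 of 96 from 2%. It reached 0.1% in 0 of 150 PBS members, in 24 of 125 papain members and in 10 of 139 papain + LND members. Reg3g, an antibacterial C-type lectin, reached it in 16 of 29 and 14 of 96 papain members. Omp, the olfactory marker protein gene, reached it in 6 of 29 and 4 of 96 papain members, and in 3 of 13 and 1 of 137 PBS members. In the shallowest members 1 UMI is enough to reach 0.1%, so these counts also hold cells with very few such UMIs. At 1% of UMIs or more stood 0, 15 and 2 members of the PBS, papain and papain + LND libraries for Chil4. For Reg3g these were 0, 15 and 8 members, and for Omp 0 in each library. The 22 papain members with Chil4 at 0.1% and under 10000 UMIs compare with 2 such members above that depth. Some of the results below, but not all, are therefore also given over the 137, 96 and 122 members with Bpifb6 from 2%. This limit was added after the values were seen.

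The share of members among kept cells was 1.58% in the PBS library (exact binomial 95% interval 1.34 to 1.85), 1.17% in the papain library (0.972 to 1.39) and 1.14% in the papain + LND library (0.963 to 1.35). On the log2 scale, the papain share stood at -0.43 (95% counting interval -0.79 to -0.08) against PBS, which is 0.740-fold. The papain + LND share stood at -0.03 (-0.39 to 0.33) against papain and at -0.46 (-0.81 to -0.12) against PBS. Among all gland cells, counted as members plus the serous, Scgb1b27 and Klk1 groups, the shares had another order: 150 of 533 (28.1%), 125 of 359 (34.8%) and 139 of 696 (20.0%). The serous group held 2.74%, 1.68% and 4.23% of kept cells. Of the member barcodes 2, 0 and 2 also occurred among kept cells of another library. Members gave 4.995%, 1.89% and 2.68% of the UMIs of their libraries.

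Cells were called female by Xist and male by Y-linked genes where their transcripts allowed it. Of the assigned members 42.2% were female in the PBS library (46 of 109), 72.7% in the papain library (56 of 77) and 74.0% in the papain + LND library (77 of 104). Other kept cells stood at 57.0%, 73.4% and 83.4% female. The female share thus differed between the libraries compared, its part in the results was not tested, and ratios within female and within male members are given for some of the results below. In female cells alone, the papain share of members stood at -0.29 (-0.88 to 0.30) against PBS, an interval that includes 0, and the papain + LND share at 0.02 (-0.49 to 0.54) against papain. In male cells alone, the papain share of members stood at -1.10 (-1.88 to -0.36) against PBS and the papain + LND share at 0.78 (-0.10 to 1.67) against papain.

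The question of the first comparison is what papain in the nose did to these cells. In the papain library, 5.05% of 8073 genes tested (those with at least 50 UMIs over both libraries' members) were at least 2-fold higher than in PBS, and 2.79% were at least 2-fold lower. The median log2 ratio over all genes tested was 0.00. The leading genes differed in direction. Ptgds stood at 33996 CPM in the PBS, 15684 in the papain and 17836 in the papain + LND library, a log2 ratio of -1.12 (95% counting interval -1.14 to -1.10) for papain against PBS. Its level in both papain libraries was about the same and below that of PBS. It was the only leading gene besides Cox8b, a cytochrome oxidase subunit gene, past 2-fold lower: Cox8b stood at 1656, 693 and 937 CPM (-1.26, -1.35 to -1.16). In other cells Ptgds stood at 343, 69.0 and 104 CPM and Cox8b at 284, 38.3 and 38.9 CPM, so these transcripts were also lower outside the members. Bpifb6 in other cells was lower as well, at 637, 195 and 261 CPM. How much of these levels was RNA released by members was not tested.

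Gkn3, Folr1 and Ces1a were past 2-fold higher among the 20 leading genes. Gkn3, a gastrokine, stood at 722 CPM in the PBS, 2544 in the papain and 2209 in the papain + LND library (1.82, 1.75 to 1.89). Folr1, the folate receptor gene, stood at 284, 610.1 and 458 CPM (1.10, 0.98 to 1.23). Ces1a stood at 2055, 4154 and 4463 CPM (1.02, 0.97 to 1.06). The rule asked for at least 1 UMI of Ces1a in every member, so its ratio is a description. Selenom, a selenoprotein of the endoplasmic reticulum, stood at 3154, 5692 and 5625 CPM (0.85) and Rgr, an opsin-like receptor gene, at 408, 731 and 919 CPM (0.84). In each of these 5 genes both papain libraries stood above PBS. Bpifb6 differed little, at 53782 CPM in the PBS, 47320 in the papain and 61319 in the papain + LND library (-0.18), as did Bpifb4 at 49274, 48031 and 42557 CPM (-0.04) and Scgb1c1 (-0.01). Gpx6 stood at 80440, 60585 and 60598 CPM (-0.41). Over the members with Bpifb6 from 2%, the ratios were -1.01 for Ptgds, -1.16 for Cox8b, 1.91 for Gkn3 and 1.09 for Ces1a.

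The BPI-fold and carboxylesterase families were narrow in these cells. Of 17 BPI-fold genes only 5 had 50 UMIs, with a median of 1.25. After papain 3 of them were at least 2-fold higher, beside 5.05% of all genes. Over members with Bpifb6 from 2%, 1 was 2-fold higher and the median was 0.50, and in other cells the median was -0.64. The median was 0.50 in female and 0.03 in male members. The female value is what equal counts in both libraries give by scaling alone, and the odorant-binding list had it too. It therefore measures no difference. The 3 were Bpifb3, Bpifa1 and the lipopolysaccharide-binding protein gene Lbp (8.29, 19.8 and 13.5 CPM), while Bpifb6 and Bpifb4 are given above. Bpifb3 stood at 118, 1524 and 61.3 CPM. Single cells carried Bpifb3: 1 member of each library held 88.6%, 51.8% and 51.7% of its UMIs, and without these cells the levels were 13.5, 755 and 29.9 CPM. Bpifa1, an airway surface protein, stood at 106, 465 and 748 CPM against 6127, 11518 and 8632 CPM in other cells. Of 19 carboxylesterases, Ces1a, Ces1d and Ces1e were tested. Ces1d, an esterase and retinyl ester hydrolase, stood at 2206, 2731 and 3620 CPM (0.31) and Ces1e at 44.9, 53.1 and 70.2 CPM (0.25). Near-identical copies could split reads between such paralogs. In the GENCODE vM21 transcripts, none of the 50-base stretches in the last 500 bases of Ces1a, Bpifb6, Bpifb4 or Ptgds occurred in another gene, and 1.77% of those of Ces1d occurred in Ces1f or Ces1g.

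By the rule for named genes, which also asked that a gene be at least as high in members as in other cells of the library where it is higher, 12 genes are named on each side. Highest was Clca3a2, a calcium-activated chloride channel regulator, at 6 UMIs in PBS, 442 in papain and 116 in papain + LND members, or 1.46, 273 and 49.0 CPM (log2 ratio 7.43, 6.41 to 9.0). The papain UMIs came from 42 members, and 14.9% of its 50-base end stretches occur in other genes, Clca3a1 among them. Fam3d, a cytokine-like secreted protein, stood at 20.5, 162 and 87.5 CPM (2.98, 2.63 to 3.36). Hes1, a repressor and target of Notch signalling, stood at 123 CPM in the PBS, 728 in the papain and 578 in the papain + LND library (2.56, 2.41 to 2.71), with 1.46 in other cells. Noct, a circadian phosphatase, stood at 13.7, 72.3 and 52.4 CPM (2.40), and Gcnt2, a glycan branching enzyme, at 33.4, 140.2 and 81.6 CPM (2.07). The calcium pump gene Atp2a3 stood at 20.2, 81.5 and 70.6 CPM (2.01). Fcgbp, a mucus protein, stood at 12.9, 59.9 and 40.2 CPM with a ratio of 2.21, but of 0.85 over members with Bpifb6 from 2%. Ly6g6c, Tceanc2, Bnip5 and Fblim1 complete the list at 2.49, 2.33, 2.26 and 1.98, with Cxcl1, described below.

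Lowest after papain was Hsd17b6, a retinol and hydroxysteroid dehydrogenase, at 99.9983 CPM in the PBS, 10.5 in the papain and 59.2 in the papain + LND library (-3.21, -4.05 to -2.55). The papain library stood alone here: 17 UMIs in 11 of its members against 410 UMIs in 69 PBS and 140 UMIs in 33 papain + LND members. Rdh5, another retinol dehydrogenase, stood at 29.3, 7.41 and 8.03 CPM (-1.93). The histone genes H2bc4, H2ac18 and H3c4 stood at -2.02, -2.15 and -1.90, with H2bc4 at 1222 CPM in the PBS, 301 in the papain and 278 in the papain + LND library. In other cells H2bc4 stood at 626, 233 and 190.5 CPM. Hilpda, a lipid droplet protein, stood at 120.0, 27.8 and 49.0 CPM (-2.10) and the lipid hydrolase gene Pnpla3 at 46.3, 11.1 and 13.5 CPM (-2.02). The claudin gene Cldn22 stood at 41.2, 9.26 and 4.65 CPM (-2.11) while it was higher after papain in other cells (2.49). Lockd, Tnnt2, Snhg16 and Fxyd6 stood at -3.04, -2.65, -2.31 and -1.95.

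**Figure D3:**
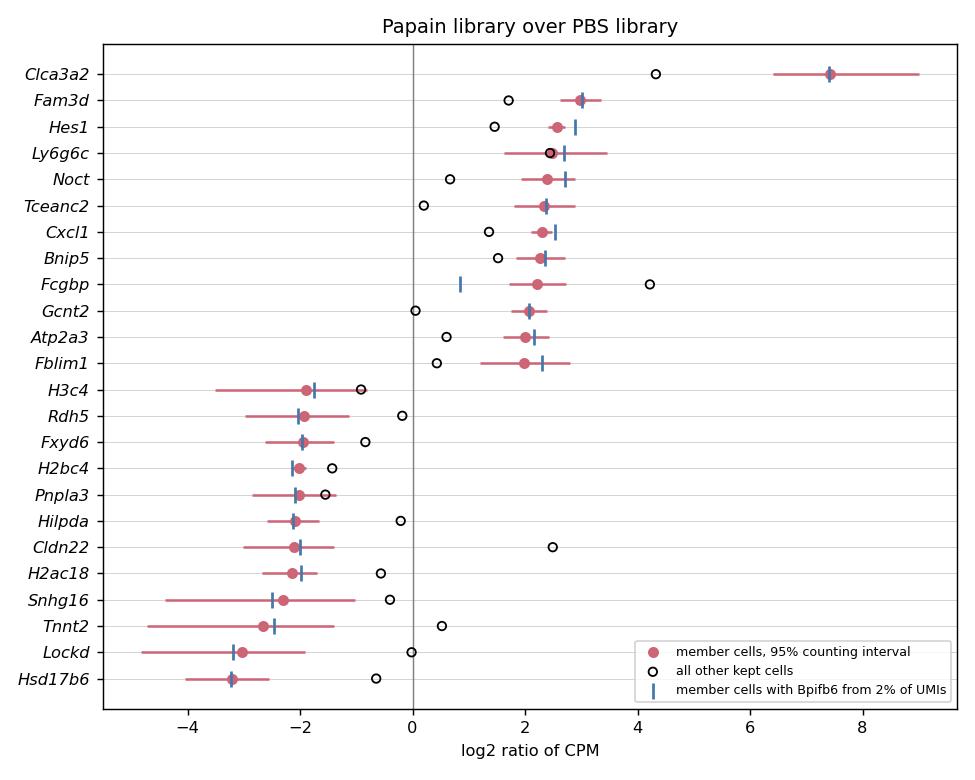
Log2 ratio of papain over PBS for the 24 named genes, with points and 95% counting intervals for members, blue ticks for members with Bpifb6 from 2% and open circles for all other kept cells. Clca3a2 stands highest at 7.43 and Hsd17b6 lowest at -3.21, and the tick of Fcgbp lies at 0.85, away from its point at 2.21.

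Genes of the NF-kB response were higher after papain. Of 20 listed genes 14 were tested, 7 were at least 2-fold higher and 0 were 2-fold lower, beside 5.05% and 2.79% of all genes. All 14 stood above 0, with a median of 1.16 beside 0.00 over all genes. The chemokine Cxcl1 stood at 82.7 CPM in the PBS, 406 in the papain and 423 in the papain + LND library (2.29, 2.1 to 2.49). Tnfaip3, the inhibitor of NF-kB known as A20, stood at 20.7 CPM in the PBS, 163 in the papain and 183 in the papain + LND library (2.97, 2.62 to 3.35). In both genes the papain libraries lie above PBS. Other cells stood at 83.0, 213 and 216 CPM for Cxcl1 and at 82.3, 216 and 228 CPM for Tnfaip3, the latter above members in each library. Zc3h12a, an RNase that degrades cytokine transcripts, stood at 15.6, 84.6 and 66.4 CPM (2.43), and the NF-kB subunit Nfkb1 at 28.3, 77.8 and 101 CPM (1.46). Cxcl2 stood at 45.4, 232 and 272 CPM (2.35), with 61.3% of its PBS and 36.8% of its papain UMIs in 1 cell each. Icam1 and Birc3 stood at 1.45 and 1.81, and the inhibitors Nfkbia and Nfkbiz at 0.41 and 0.69. The list's median was 1.74 over members with Bpifb6 from 2%, 1.17 in female and 0.90 in male members. In other cells the same genes had a median of 0.88.

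The promoters of these genes are shown because 14 of 14 tested genes of this list stood above 0 and NF-kB binds a known short motif, the kappa B site. Windows come from RefSeq in build GRCm38.p6 and cover 250 bases before to 50 after a start site. The letters searched were GGG and TTCC separated by 3 bases of any kind, on both strands, so that a palindromic site counts on each strand and such matches overlap. Of the 11 tested list genes with a window, 5 held a match (45.5%: Cxcl1, Cxcl2, Nfkbia, Tnfaip3 and Nfkb2), against 6.31% of 27025 genes and 5.56% of 32851 windows. The list was drawn up as genes of the NF-kB response, so a high share of matches was likely beforehand. The share describes the list and is no result about these cells. The 150 bases before the start are given below, 5' to 3' on the gene's strand, with matched letters in capitals. The windows lie at chr5:90891095-90891244 for Cxcl1 (plus strand), chr5:90903749-90903898 for Cxcl2 (plus strand) and chr12:55492648-55492797 for Nfkbia (minus strand).
Cxcl1: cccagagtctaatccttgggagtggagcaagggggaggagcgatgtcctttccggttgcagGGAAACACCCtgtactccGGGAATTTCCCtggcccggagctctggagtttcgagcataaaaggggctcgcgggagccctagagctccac
Cxcl2: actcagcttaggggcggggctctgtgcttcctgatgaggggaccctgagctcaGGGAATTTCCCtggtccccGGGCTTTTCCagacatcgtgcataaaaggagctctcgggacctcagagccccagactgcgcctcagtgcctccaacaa
Nfkbia: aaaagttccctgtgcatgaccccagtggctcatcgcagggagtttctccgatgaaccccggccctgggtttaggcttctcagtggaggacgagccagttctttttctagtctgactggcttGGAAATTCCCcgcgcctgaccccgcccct
Cxcl1 and Cxcl2, neighbours on the chromosome, share the run GGGAATTTCCC, which starts 71 bases before the start site in Cxcl1 and 97 before it in Cxcl2. Of these 3 genes, Cxcl1 and Cxcl2 were past 2-fold higher and Nfkbia was not, at 363, 483 and 687 CPM. A match is a description of the letters and not a bound site.

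Antimicrobial and acute-phase proteins stood higher after papain but mostly below their level in other cells. Of 12 tested, 10 were at least 2-fold higher and 0 lower, beside 5.05% and 2.79% of all genes. The median was 3.22, and 2.13 for the same genes in other cells. The list holds Ltf, a serous gene that the rule used, so its value is a description. Reg3g stood at 22.7 CPM in the PBS, 2007 in the papain and 1903 in the papain + LND library, and at 872, 7320 and 5894 CPM in other cells. In papain members with 0.5% to 1% Bpifb6 it stood at 17464 CPM. It stood at 612 CPM in those with 2% to 4% and at 380 CPM in those with 4% or more. Pigr, the receptor that carries immunoglobulin A into secretions, stood at 8.29, 251 and 208 CPM against 82.2, 510.5 and 459.9 CPM. Ltf, lactoferrin, stood at 14.6, 369 and 2370 CPM against 483, 2680 and 2418 CPM. In the papain + LND library 1 member held 81.0% of its UMIs, and without that member Ltf stood at 463 CPM. The chitinase-like Chil1 stood at 7.80, 256 and 95.5 CPM against 57.6, 264 and 199 CPM, with 41.4% of its papain UMIs in 1 member. Complement C3 stood at 4.39, 47.5 and 39.3 CPM against 24.1, 153 and 171 CPM. Chil4 had 1 UMI in PBS members and 1738 CPM in papain members, a log2 ratio of 12.21 (10.32 to 18.10), and of 7.98 with Bpifb6 from 2%. How much of these transcripts came from other cells was not tested. Of the mucin and goblet list 6 of 9 tested were at least 2-fold higher, beside 5.05% of all genes. The list's median was 1.25, also with Muc5ac at a floor of 3 counts. Muc5ac had 0 UMIs in PBS and 31.5 CPM in papain members, against 148 CPM in other papain cells.

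Sterol synthesis genes were lower after papain. Of 19 listed genes 18 were tested, 7 were at least 2-fold lower and 0 were 2-fold higher, beside 2.79% and 5.05% of all genes. Of the 18 tested, 17 stood below 0, with a median of -0.79. Over members with Bpifb6 from 2%, 12 were 2-fold lower and the median was -1.32. Insig1, the sterol sensor that holds SREBP in the endoplasmic reticulum, stood at 207 CPM in the PBS, 79.7 in the papain and 93.8 in the papain + LND library (-1.38, -1.66 to -1.11). Sqle, squalene epoxidase, stood at 93.2 CPM in the PBS, 37.7 in the papain and 40.2 in the papain + LND library (-1.30, -1.72 to -0.91). For both genes the papain libraries stood together below PBS. Fdps, which makes farnesyl diphosphate, stood at 120.0, 45.1 and 32.5 CPM (-1.40), Fdft1 at -1.72, Msmo1 at -1.49, Lss at -1.39 and Dhcr7 at -1.25. In other cells the list had a median of -1.05. The sterol element TCACNCCAC, searched on both strands, was in 1 of 12 listed genes with a window (Hmgcs1), or 8.33%, against 1.44% of all genes. This share too describes the list and is no result about these cells.

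Junction and keratin genes were partly higher. Of 16 tested, 4 were past 2-fold higher and 0 lower, beside 5.05% and 2.79% of all genes, with a median of 0.47. Cldn4, a claudin of tight junctions, stood at 33.7 CPM in the PBS, 308 in the papain and 163 in the papain + LND library (3.19, 2.92 to 3.47), and at 50.6, 352 and 207 CPM in other cells. Ocln stood at 1.19, Jup at 1.23 and Krt19 at 3.93, the last with 2.65 over members with Bpifb6 from 2%. Among 20 tested transcription factors of glands and airway 4 were past 2-fold higher and 0 lower, beside these same shares (median 0.19). The epithelial factor Klf5 stood at 76.8, 250.1 and 177 CPM (1.70), Elf3 at 31.2, 101 and 85.8 CPM (1.69), Ehf at 85.1, 193 and 182 CPM (1.18) and Creb3l1, a factor for secretory capacity, at 51.0, 127 and 124 CPM (1.31). Sox9 (-0.05) and Sox10 (-0.46) differed less.

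Genes of the secretory machinery differed by less than 2-fold. Of 28 tested genes of the secretory pathway and unfolded protein response 0 passed 2-fold in either direction, with a median of 0.09. Over all genes 5.05% were 2-fold higher and 2.79% lower, so a count of 0 is near those shares. The chaperone Hspa5 stood at 1309 CPM in the PBS, 1728 in the papain and 1660 in the papain + LND library (0.40), Hsp90b1 at 0.05 and Xbp1 at 0.18. Of 16 tested ion and fluid transport genes 3 were past 2-fold higher and 1 lower, beside 5.05% and 2.79% of all genes (median 0.33). Aqp5 stood at -0.46, the chloride cotransporter gene Slc12a2 at 583, 795 and 893 CPM (0.45) and the bicarbonate cotransporter gene Slc4a4 at 139, 262 and 286 CPM (0.91). Slc26a9, an anion transporter gene that stood at 13.7, 29.0 and 31.3 CPM against 0.526, 1.07 and 1.41 CPM in other cells, was past 2-fold higher (1.09).

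List medians of energy metabolism lay within 2-fold. The median was -0.23 for 14 glycolysis genes with 1 past 2-fold lower (Aldoa, 680.0, 313 and 402 CPM), -0.20 for 27 nuclear genes of oxidative phosphorylation and -0.14 for 18 genes of the tricarboxylic acid cycle. In other cells these medians were -0.76, -0.49 and -0.34. Of all genes tested in members, 2.79% were 2-fold lower. All 22 ribosomal protein genes tested stood below 0, with a median of -0.63 and 0 past 2-fold, and in other cells the median was -0.18. The share of 18S ribosomal RNA in member UMIs was 0.597%, 2.43% and 2.04%, and 0.895%, 3.66% and 3.54% in other cells, whose part in the ribosomal protein levels was not tested.

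Detoxifying enzymes differed gene by gene. Sult1e1, the oestrogen sulfotransferase, stood at 200.5 CPM in the PBS, 545 in the papain and 416 in the papain + LND library (1.44, 1.30 to 1.58), while other cells stood at 173, 154 and 112 CPM. Adh1 stood at 668, 511 and 491 CPM (-0.39) and Cyp2a5 at 1275, 1255 and 2060 CPM (-0.02). Of 17 tested phase 1 enzymes 4 were past 2-fold higher and 1 lower (median 0.11), and of 17 phase 2 enzymes 4 and 1 (median 0.27). Over all genes these shares were 5.05% and 2.79%. Of 19 tested genes of the NRF2 and antioxidant response 3 were higher and 0 lower, beside the same shares over all genes (median 0.36). They were Hmox1 at 23.7, 72.9 and 27.9 CPM (1.62), the sulfiredoxin gene Srxn1 at 16.1, 53.7 and 43.1 CPM (1.74) and the thioredoxin reductase gene Txnrd1 at 71.7, 146 and 108 CPM (1.02). Gpx4 stood at 641, 321 and 306 CPM (-0.997).

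**Figure D4:**
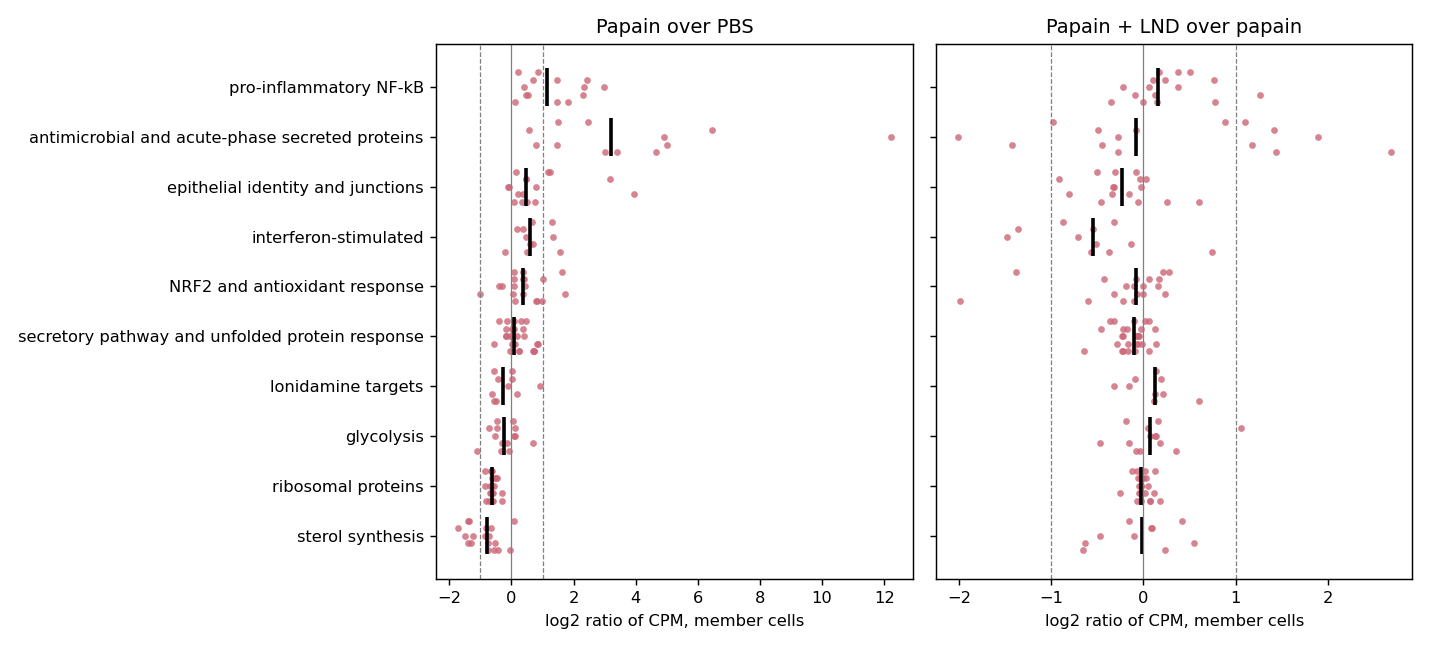
Log2 ratios of the tested genes of 10 lists in members, for papain over PBS on the left and papain + LND over papain on the right, with black bars at the list medians and dashed lines at 2-fold. On the left the NF-kB median stands at 1.16 and the sterol median at -0.79, and on the right the interferon median stands at -0.55 with the sterol median at -0.01.

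The second comparison asks what LND added to papain. Of 6962 genes tested, 1.51% were at least 2-fold higher and 1.75% at least 2-fold lower in the papain + LND library than in the papain library, with a median of 0.02. These comparisons share the papain library, so values of the 3 libraries are given side by side and no likeness between the comparisons was computed. Among leading genes none passed 2-fold: Bpifb6 stood at 0.37 (0.36 to 0.39), Cox8b at 0.43, Folr1 at -0.41, Ptgds at 0.19 and Gpx6 at 0.00. The listed targets of lonidamine, namely hexokinases, pyruvate and lactate carriers and succinate dehydrogenase, had 0 of 9 tested genes past 2-fold and a median of 0.12. With 1.51% and 1.75% of all genes past 2-fold, a count of 0 is near the share over all genes and does not set this list apart. Sdha, the catalytic subunit of succinate dehydrogenase, stood at 169 CPM in the PBS, 113 in the papain and 172 in the papain + LND library (0.61, 0.35 to 0.87). Hk2 stood at 64.6, 122 and 97.2 CPM (-0.32) and the transporter partner Bsg at 1824, 1284 and 1396 CPM (0.12). Of 13 tested glycolysis genes, Pfkp was past 2-fold higher, with 52.5% of its papain + LND UMIs in 1 cell, and the median was 0.07.

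Among named genes, Hsd17b6 stood at 59.2 CPM in papain + LND against 10.5 CPM in papain members (2.46, 1.76 to 3.31), between the papain and the PBS level. Fxyd6, a sodium pump regulator, stood at 63.2, 16.1 and 46.9 CPM (1.53, 0.92 to 2.22), again with the papain library lowest. Clca3a2 stood at 49.0 against 273 CPM (-2.47, -2.78 to -2.18), with -2.59 in female and -0.70 (-1.65 to 0.21) in male members, and Fam3d at 87.5 against 162 CPM (-0.89, -1.16 to -0.62). For both genes papain members were highest and PBS members lowest. Fn1, fibronectin, stood at 29.9995, 49.4 and 187 CPM (1.91, 1.57 to 2.28), from 32 papain + LND members. Klhl25, Znrf3, Slc9b2, Ankrd40, Gstm7 and Ptgr2 stood at 1.71, 1.44, 1.38, 1.16, 1.13 and 1.07. Of these, Ptgr2 reversed to -0.31 when the per-cell CPM were averaged in place of summed counts. On the lower side, Cept1, Mtx1, C2, Ipo4, Tmem115, Cebpa, Mrps11, Psmg2 and Psmg3 stood between -1.06 and -0.86.

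Of 11 interferon-stimulated genes tested, 2 were at least 2-fold lower with LND and 0 higher, beside 1.75% and 1.51% of all genes, with a median of -0.55 beside 0.02 over all genes and -0.32 for the same genes in other cells. The median was -0.19 in female members, nearer to 0. In male members it was -0.31, the value that a gene with equal counts in both libraries takes by scaling alone. The prostanoid and mucin lists had the same male median, so this value measures no difference. Ifit1, an antiviral RNA-binding protein, stood at 46.1 CPM in the PBS, 64.2 in the papain and 24.9 in the papain + LND library (-1.36, -1.85 to -0.89), with -0.60 (-1.38 to 0.18) in female and -1.59 (-2.52 to -0.77) in male members. Isg15, a ubiquitin-like modifier, stood at 8.05, 20.4 and 7.19 CPM (-1.48, -2.44 to -0.62). For both genes papain members were highest and papain + LND members lowest. Irf1 differed in direction, at 87.3 CPM in the PBS, 217 in the papain and 364 in the papain + LND library (0.74, 0.56 to 0.92). NF-kB genes had a median of 0.16, with 1 of 16 tested past 2-fold higher (Ccl20, beside 1.51% of all genes) and Cxcl1 at 0.06. Sterol genes had 0 of 10 past 2-fold, which is near the shares over all genes (median -0.01). In the NRF2 list 2 of 19 were past 2-fold lower, beside 1.75% of all genes, Hmox1 at -1.38 and Nqo1 at 23.2, 40.8 and 10.1 CPM (-1.99).

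**Figure D5:**
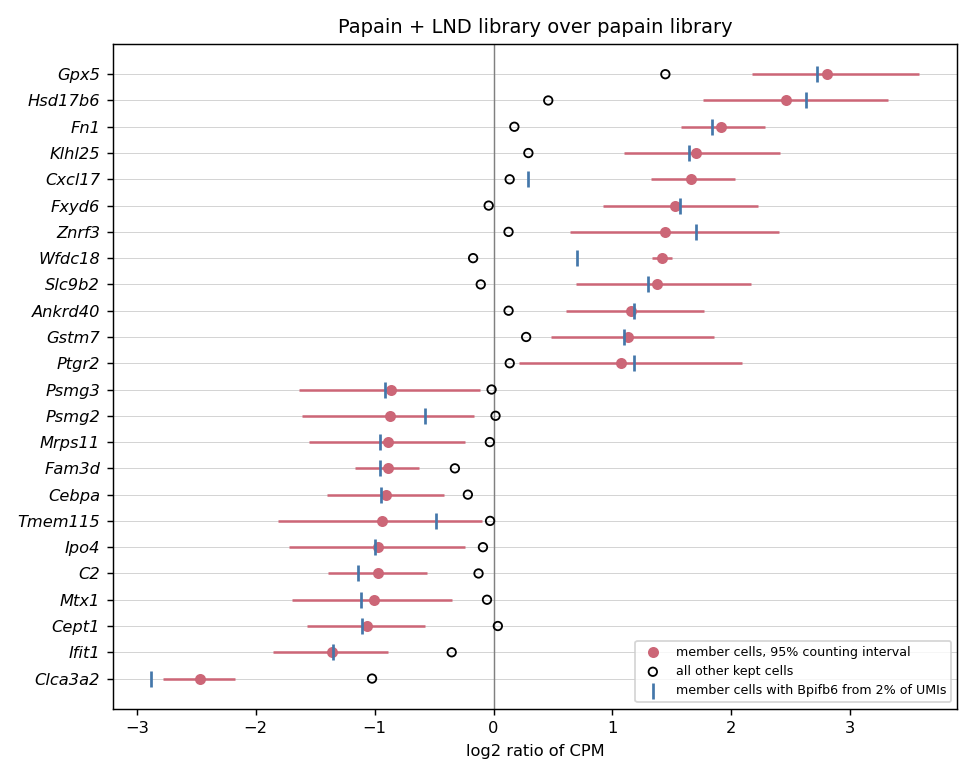
Log2 ratio of papain + LND over papain for the 24 named genes, with points and 95% counting intervals for members, blue ticks for members with Bpifb6 from 2% and open circles for all other kept cells. Gpx5 stands highest at 2.81 and Clca3a2 lowest at -2.47, while all open circles but those of Gpx5 and Clca3a2 lie within 0.5 of 0.

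Several high values of the papain + LND library came in large part from 1 cell each. A single member with 71871 UMIs and 3.67% Bpifb6 held 99.5% of the carbonic anhydrase gene Car6, 98.0% of Scgb2b27, 91.6% of the lipocalin gene Lcn11 and 81.0% of Ltf among members there. Without it Car6 went from 232 to 1.31 CPM, Scgb2b27 from 83.3 to 1.74 CPM, Lcn11 from 399 to 34.4 CPM and Ltf from 2370 to 463 CPM. Another, with 35961 UMIs, held 82.2% of Bpifa1 and 38 of 40 UMIs of Foxj1, a ciliated cell factor, and without it Bpifa1 stood at 135 CPM. Gpx5, a selenium-free glutathione peroxidase and the highest named gene, had 74.2% of its UMIs in 1 member and stood at 23.0 CPM without it, against 12.4 CPM in papain. A member with 47569 UMIs and 1.06% Bpifb6 held 36.1% of Wfdc18, 193 of 386 UMIs of the chemokine Cxcl17 and 58.6% of the mucin Muc5b. Without it Wfdc18 stood at 1607 CPM and Cxcl17 at 83.3 CPM, against 921 and 51.3 CPM in papain members. Over members with Bpifb6 from 2%, the ratios to papain were 0.70 for Wfdc18 and 0.29 for Cxcl17, against 1.42 and 1.66 in all members. The Scrublet doublet caller marked 0, 1 and 0 members.

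Of 6 tested genes of the odorant-binding and lipocalin list 5 were at least 2-fold higher with LND, with a median of 2.06, and of 1.87 in female and 0.52 in male members. Of these 5, Obp1a, Obp1b and Mup4 are serous genes that the rule used to leave out cells, so their values are a description and the count supports nothing. Lcn11 was past 2-fold through the single member named above, since it stood at 34.4 CPM without that cell against 17.9 CPM in papain, and Apod had 40.9% of its UMIs in 1 cell. Obp1a, an odorant-binding protein, stood at 117 CPM in the PBS, 141 in the papain and 358 in the papain + LND library (1.34, 1.13 to 1.56), and Obp1b at 85.4, 71.0 and 225 CPM (1.66). The urinary protein gene Mup4 stood at 52.2, 4.32 and 56.2 CPM (3.61). Levels in other cells were 1721, 2812 and 4126 CPM for Obp1a, 1275, 1657 and 2624 CPM for Obp1b and 513, 347 and 545 CPM for Mup4, in each library above those of members. Serous gland cells, which these genes mark, were 1.68% of papain and 4.23% of papain + LND kept cells, and their part in the result was not tested.

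Against PBS, 4.92% of 8454 genes tested were at least 2-fold higher and 2.74% at least 2-fold lower in papain + LND members, with a median of 0.04. Named genes not yet described were Taf4b (3.41, 16.1 and 21.6 CPM), Car4 (4.39, 13.6 and 20.3 CPM) and Nfatc1 (13.9, 35.2 and 60.4 CPM) on the higher side. On the lower side were Bglap3 (245, 78.4 and 49.0 CPM), the liver glycoprotein gene Ahsg (82.7, 29.6 and 16.9 CPM), Fbxo27, Haus3 and the histone genes H4c8 (65.9, 26.6 and 15.6 CPM), H3c15 and H1f2 (263, 104 and 72.3 CPM). For Nfatc1, Bglap3, Ahsg and H4c8 the papain library lay between the other libraries. After each cell with at least 2000 UMIs was thinned to that number, 138, 92 and 115 members remained, with medians of 843, 857 and 867 genes. In them Hes1 was detected in 18.1%, 57.6% and 52.2%, H2bc4 in 84.1%, 33.7% and 38.3%, Cxcl1 in 12.3%, 31.5% and 38.3% and Hsd17b6 in 15.9%, 3.26% and 7.83% of members, against 60.7%, 70.4% and 77.7% for Hes1 without thinning.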

How the data were processed

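Nasal mucosa of 3 groups of mice was profiled as 1 pooled library each. The deposited values are UMI counts per gene and cell, unnormalized. Cell Ranger 7.1.0 made them per the file headers, while the submitters' processing notes name Cell Ranger 2.1.1 and build GRCm39. Of 9740, 11071 and 12598 deposited barcodes (82399462, 86197965 and 89164040 UMIs), 9515, 10712 and 12149 were kept, which needed 500 UMIs, 200 genes and no more than 20% of UMIs from mitochondria. Scrublet calls were used only as an alternative. The members and gene lists were chosen with earlier results of these data known.

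Counts were summed over members of a library, scaled to CPM and compared as log2 ratios after adding 0.5 counts. Intervals are conditional binomial, and shares carry exact Clopper-Pearson intervals, both at 95% and for counting error only. UMIs were taken as independent molecules. Genes with at least 50 UMIs over the compared libraries were tested against a limit of 2-fold (log2 of 1), without p-values. On simulated counts the intervals held the true ratio in 95.7%, 96.1% and 95.7% of genes for papain against PBS, papain + LND against papain and papain + LND against PBS. These counts were drawn under the model from which the intervals derive, without variation between cells or mice. The coverage therefore checks the computation only. Named genes were the 12 highest and 12 lowest ratios per comparison among tested, named genes detected in at least 20% of members of the library where they were higher, with an interval excluding a ratio of 1 and a level there at or above other cells. Ribosomal RNA and mitochondrial genes were left out. Leading genes were the 20 with the highest ratio to other cells, detected in at least 50% of members of every library. In a list, members past 2-fold and the 4 most abundant could be named; other genes named, such as those of single cells, were chosen after their values were seen. Scrublet came from scanpy 1.11.5, and Python 3.11.15, numpy 2.4.6, scipy 1.17.1, pandas 2.3.3 and matplotlib 3.10.9 were used.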

Additional observations from a re-analysis of the deposited data

Results flagged for a closer look

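Some genes had opposite log2 ratios in members and in serous gland cells, with counting intervals on either side of 0, and none of these differences was tested. For papain against PBS, Gcnt2 stood at 2.07 in members and at -1.497 in serous gland cells. For papain + LND against papain, Clca3a2 stood at -2.47 in members and 1.31 in serous gland cells, and Wfdc18 at 1.42 and -1.25. In the same comparison Cept1 stood at -1.06 and 0.79, and C2, a complement gene, at -0.97 and 3.09. Serous gland cells of the papain and papain + LND libraries were shallow, with median depths of 870 and 1162 UMIs.

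Other genes had opposite ratios in female and male members for papain + LND against papain. Cxcl17 stood at 2.64 in female and -2.34 in male members, and Wfdc18 at 2.25 and -2.85. The male ratios came from 21 papain and 27 papain + LND members, and 1 member held 193 of 386 UMIs of Cxcl17 and 36.1% of Wfdc18 in the papain + LND library. These differences were not tested either.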

How the results depend on the processing

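No paired analysis was possible because each group is 1 library. Of the counts and shares recomputed under the alternatives, 128 stayed within their limits, 21 moved and 1 reversed. Of list medians 896, 46 and 2 did so. Only shares whose interval above excluded 0 and list medians at least 0.5 from 0 could count as reversed. Smaller list medians that changed sign count as stayed or moved. One was that of phase 1 enzymes with LND against papain, 0.30 in all and -0.72 in male members. Of named genes 1114 kept their direction with an interval excluding a ratio of 1, 30 had an interval that included it and 8 reversed. Averaged per-cell CPM had no interval, so only direction counted there. The cause of these changes was not tested. With all gland cells as denominator, the log2 share of members stood at 0.31 for papain against PBS and at -0.80 for papain + LND against papain, and in male cells at -1.10 and 0.78. With per-cell CPM averaged, 10.3% of genes were 2-fold higher and 7.26% lower for papain against PBS, 5.70% and 4.96% for papain + LND against papain, and 9.52% and 6.29% for papain + LND against PBS. With at least 20 UMIs, 7.59% were higher for papain against PBS, 7.43% for papain + LND against PBS, and 2.96% higher and 3.27% lower for papain + LND against papain. With at least 200 UMIs the last comparison had 0.868% on either side. Its lower share was 0.939% with Bpifb6 at 0.5% or more, 0.948% at 2% or more (added after seeing the data), 1.06% in female and 2.82% in male cells. In male cells 5.20% were lower for papain against PBS and 5.14% for papain + LND against PBS. The odorant-binding list's median for papain against PBS, -0.58, turned to 0.50 in female cells and 0.70 with per-cell CPM averaged. The female value is what equal counts in both libraries give by scaling alone, so it is not a measured reversal. In male cells, ratios of papain + LND against papain reversed to -0.59 for Gpx5, -2.34 for Cxcl17, -2.85 for Wfdc18, 0.023 for Fam3d and 0.31 for Psmg3, and that of Taf4b against PBS to -0.16. Averaging per-cell CPM reversed Wfdc18 to -0.14 and Ptgr2 to -0.31 for papain + LND against papain.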

Other observations

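Further lists were compared for papain against PBS, where 5.05% of all genes tested were 2-fold higher and 2.79% lower. MHC class I and II genes had 0 of 8 tested past 2-fold (median 0.30), and fatty acid genes had 1 of 23 lower, the fatty acid binding protein gene Fabp5, with a median of -0.12. Of 13 tested protease inhibitors 5 were past 2-fold higher (median 0.11), Serpina3n and Timp1 among them. Of 16 genes of glucocorticoid and circadian response 2 were higher, Mt2 and Per2, and 1 was lower, the clock gene Arntl (median 0.51). Genes of the dissociation response had 1 of 21 higher and 1 lower (median 0.20). For the fatty acid and dissociation lists these counts are near the shares over all genes.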
